A study of Rattus norvegicus with 300 samples.

Results

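The genes described here were chosen for brain RNA that stood above the level of rats given water or maltodextrin. The choice asked for this in rats that had drunk FT, Bupropion or Desipramine alike. The set was the 100 genes with the highest scores among 9664 genes that reached a mean CPM of 5 in 5 brain regions, out of 17337 genes in the table. CPM is a gene's counts scaled to the library's total, per 1000000. Members were chosen by a score. The score was built from log2(CPM + 1), averaged per treatment over the regions labelled CGC, mPOA, NACShell, PLC and Raphe. It is the lowest of the 3 drug means minus the higher of the Control and Maltodextrin means, so a positive score says that every drug group lay above both control groups. Because these values chose the members, the levels in those 5 regions are given as a description, with no test. The other 5 regions, labelled BLA, dorDG, ILC, LConly and venDG, played no part in the choice, and the Probiotics rats entered only the minimum on the mean CPM. The Probiotics mean also lay above both control means for 99 of the 100 members (49.7% of all genes), so the set is not particular to the drugs.

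All animals were male Long Evans rats of 60 days, treated for 3 weeks through their drinking water. FT rats received 13 mg/kg/day, Bupropion rats 15 mg/kg/day and Desipramine rats 7.5 mg/kg/day. Maltodextrin rats received 10 g/L, Probiotics rats a probiotic, and Control rats plain water. FT is not spelled out in the group label; fluoxetine, a serotonin reuptake inhibitor, is the drug of the treatment protocol that no other group carries. Bupropion is known as a dopamine and noradrenaline reuptake inhibitor, and desipramine as a tricyclic that mainly blocks noradrenaline reuptake. RNA came from pooled punches of frozen brain sections, and each of the 60 groups (6 treatments by 10 regions) held 5 libraries, 300 in all. The labels do not say how many rats a pool held, so n counts libraries. A p-value rests on the spread of libraries within groups, estimated over the 30 libraries of a region, whatever its origin. Regions with the same replicate number may come from the same rats, since the protocol describes many regions in every replicate. No preparation or sequencing batch is given in the labels, so a batch that followed treatment cannot be told apart from it.

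Library totals ran from 198260 to 18310687 counts, with a median of 9232563, and 4 libraries, all Desipramine, lay under 1000000. Single marker genes were examined for LConly, Raphe, dorDG, NACShell, mPOA and ILC, and none for the identity of CGC, PLC, BLA or venDG. Tph2, the serotonin synthesis enzyme, averaged 453 to 759.7 CPM in the 6 Raphe groups. Drd1, a dopamine receptor of striatal neurons, averaged 176 to 336 CPM in NACShell. The FT libraries labelled LConly and ILC did not carry the markers of their labels. Dbh, the noradrenaline synthesis enzyme, averaged 0.651 CPM in the library group labelled FT LConly and 255 CPM in that labelled FT ILC, while Tbr1, a cortical neuron marker, averaged 18.1 and 0.485 CPM in them. FT was therefore not compared in either region, although these libraries stayed in the fit of the region on their label. The Control libraries stood apart in BLA and venDG, where Cd74, an immune gene, averaged 536 and 567 CPM against 7.01 and 17.7 CPM in Maltodextrin, and in ILC, where Slc17a7, a marker of excitatory neurons, averaged 23.4 CPM against 274 CPM. Maltodextrin was the reference in those 3 regions, and Control in dorDG and LConly. Cd74 in BLA ranged from 476 to 610.0 CPM over the Control libraries and from 6.12 to 8.91 CPM over the Maltodextrin libraries. Such a difference, shared by all libraries of a group, is not part of the spread within groups on which a p-value rests. The p-values therefore do not tell treatment apart from a dissection that a whole group shared.

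Antidepressants of these classes act first on monoamine transporters, within hours, while mood in patients changes over weeks, and lasting shifts in gene expression are studied as a possible link. The genes most often followed in that work serve synapses, ion channels, neuropeptides and transcription. The members held 19 genes of transcription and chromatin, 16 of channels, receptors and synapses, 14 of the cytoskeleton and small GTPases, 9 of ubiquitin, proteasome and protein folding, 8 of vesicle and membrane traffic, 6 of mitochondria, peroxisome and metabolism, 6 peptides or secreted factors, 5 RNA-binding or RNA-processing genes, 3 regulators of growth factor pathways, and 14 that were left ungrouped. These roles were assigned after the members were known.

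The stretches just before the start sites of the 4 leading members, Zfp238 (now Zbtb18), Cartpt, Avp and Naf1, are shown because these genes share the pattern of levels that heads the ranking. Each is the 250 bases before the start in RefSeq (GRCr8), 5′ to 3′ along the gene, at chr13:91971352-91971601 (plus strand), chr2:32991236-32991485 (minus), chr3:138248523-138248772 (minus) and chr16:27634964-27635213 (minus). RefSeq lists 2 windows for Zbtb18, and the first is printed. Capitals mark any match on either strand to the GC box (letters GGGCGG), the cAMP response element (letters TGACGTCA), the CCAAT box (its own letters), the E-box (letters CACGTG), the TATA box (letters TATAAA) or the AP-1 element (letters TGANTCA).
Zfp238: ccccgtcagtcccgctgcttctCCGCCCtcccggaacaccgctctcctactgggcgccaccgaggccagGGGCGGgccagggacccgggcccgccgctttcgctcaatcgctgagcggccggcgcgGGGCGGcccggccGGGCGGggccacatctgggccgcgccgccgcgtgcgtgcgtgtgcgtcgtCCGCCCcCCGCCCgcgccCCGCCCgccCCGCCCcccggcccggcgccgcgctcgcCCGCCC
Cartpt: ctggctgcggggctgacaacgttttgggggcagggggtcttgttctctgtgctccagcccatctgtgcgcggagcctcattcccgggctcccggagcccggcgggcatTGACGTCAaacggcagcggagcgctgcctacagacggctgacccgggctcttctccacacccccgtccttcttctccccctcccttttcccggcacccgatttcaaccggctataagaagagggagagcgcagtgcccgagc
Avp: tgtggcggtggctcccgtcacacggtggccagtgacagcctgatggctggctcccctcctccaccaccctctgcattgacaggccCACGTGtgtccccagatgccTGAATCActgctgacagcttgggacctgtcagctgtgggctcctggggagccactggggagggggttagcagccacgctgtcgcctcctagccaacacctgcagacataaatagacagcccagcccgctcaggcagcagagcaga
Naf1: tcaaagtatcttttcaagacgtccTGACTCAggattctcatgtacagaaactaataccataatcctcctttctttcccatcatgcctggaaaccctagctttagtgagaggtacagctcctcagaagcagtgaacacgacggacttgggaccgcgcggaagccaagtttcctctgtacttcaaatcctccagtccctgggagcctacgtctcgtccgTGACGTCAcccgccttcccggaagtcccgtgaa
Zfp238 held 9 GC boxes and none of the other motifs, at 83.6% GC. Cartpt and Naf1 each held 1 cAMP response element, Avp and Naf1 each held 1 AP-1 match, and Avp also held 1 E-box. Among 7889 genes of the 9664 with a RefSeq window, 63.9% held a GC box, 3.52% a cAMP response element and 38.0% CCAAT. The E-box was held by 9.58%, the TATA box by 6.25% and the AP-1 letters by 4.42%. Those windows of 300 bases also took in the 50 bases after the start, so they were longer than the stretches printed. Only 74 of the 100 members had a window, so a comparison of motifs or GC content over the set was void. A match is a run of letters, not a measured binding site.

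In the 5 regions of the rule, the members stood 0.31 to 0.60 above the higher control group on the log2 scale at the drug that was lowest (median 0.37, against -0.24 over all 9664 genes). Of all those genes, 1502 (15.5%) had a score above 0. For 90 of the 100 members, each of the 15 drug replicates, averaged over the 5 regions on the log2 scale, lay above each of the 10 control replicates; this held for 4.27% of all genes, and nothing is read from it, since the rule chose for it. FT was the highest drug for 70 members, Desipramine for 16 and Bupropion for 14. The lowest drug was Bupropion for 51 members, Desipramine for 43 and FT for 6. Median differences from Control were 0.69 for FT, 0.48 for Bupropion and 0.48 for Desipramine, and from Maltodextrin 0.67, 0.53 and 0.52. Over all genes the medians were themselves 0.16 and 0.21 above Control for FT and Desipramine, because CPM was taken from raw totals. Under TMM scaling, which brought these all-gene medians to -0.0016 and 0.0054, the members' medians against Control were 0.52 for FT, 0.49 for Bupropion and 0.27 for Desipramine. With TMM factors in the score, 56 of the 100 members were among the highest 100.

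**Figure D1:**
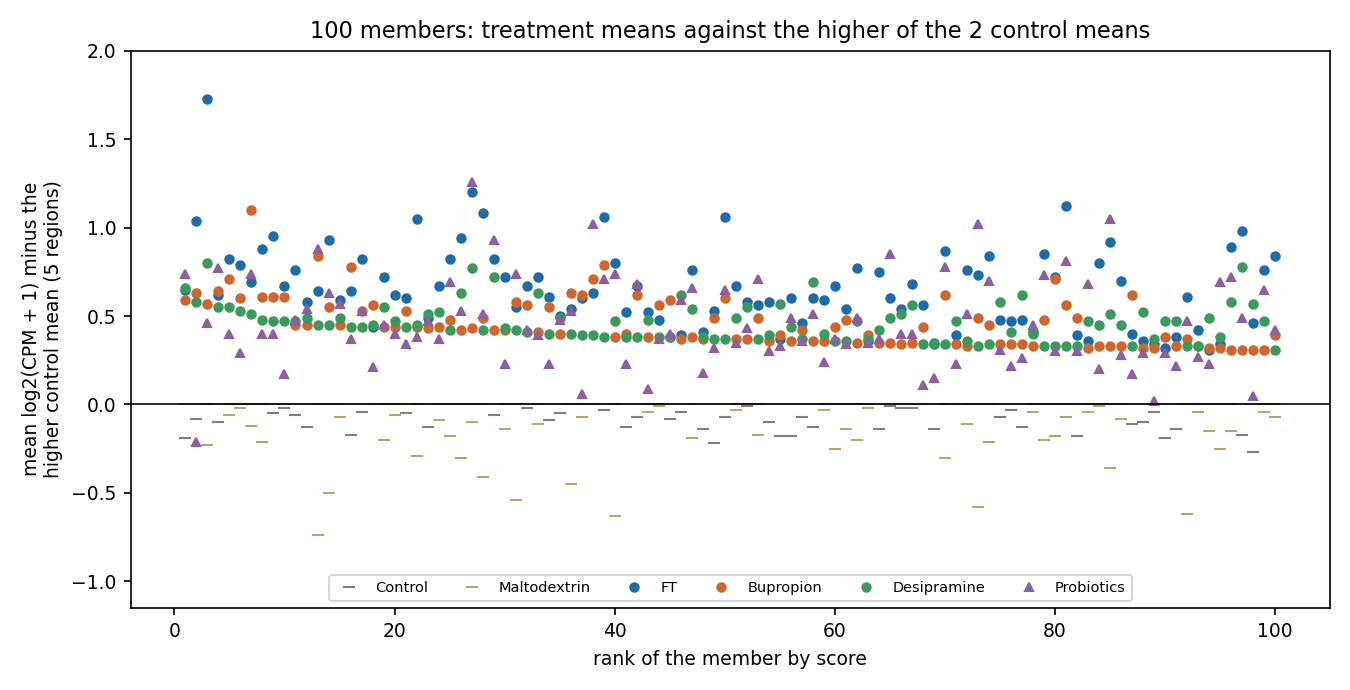
Level of each member relative to the higher of its 2 control groups, in log2(CPM + 1) averaged over the 5 regions of the rule, by rank of score. Points are treatment means; the drug points lie 0.31 to 1.73 above the higher control, and the Probiotics points lie above 0 for 99 of 100 members.

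The limit of 100 fell in a flat stretch of the ranking. Spata25 and Sox9 were among the last inside, with scores of 0.3098 and 0.3096. Atp6v0a1, Dlk1 and Glrx5 were the first outside, with 0.3088, 0.3083 and 0.3079. Membership near the limit is thus set by differences far under the spread between replicates.

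Zfp238, a zinc-finger transcriptional repressor of neuron development, had the highest score. Its replicate levels, as means over the 5 regions, were 22.9, 23.9, 24.6, 24.1 and 23.1 CPM in Control and 29.3, 26.1, 31.9, 24.9 and 25.3 CPM in Maltodextrin. They were 48.3, 36.6, 46.0, 38.7 and 29.4 CPM with FT, 41.2, 43.7, 44.2, 39.5 and 36.9 CPM with Bupropion, and 41.3, 44.4, 39.6, 47.0 and 42.6 CPM with Desipramine. In CPM the lowest FT replicate overlapped the Maltodextrin range, although on the log2 scale of the score it did not, and all Bupropion and Desipramine replicates lay above both control groups. Zfp358, a zinc-finger gene of unsettled function, stood lower in level: 7.41, 7.91, 7.37, 7.92 and 8.29 CPM in Control and 7.69, 6.89, 7.55, 7.33 and 7.44 CPM in Maltodextrin. With FT it was at 13.7, 14.3, 13.2, 14.8 and 15.1 CPM, with Bupropion at 12.6, 13.1, 14.6, 13.8 and 12.6 CPM, and with Desipramine at 10.2 CPM in replicate 4 and from 11.9 to 12.2 CPM in the rest. Here no drug replicate overlapped a control replicate.

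Cartpt and Avp encode neuropeptides, and their means were carried by few regions. Cartpt, the precursor of a peptide of feeding and reward circuits, measured 65.1, 64.7, 61.7, 68.7 and 67.1 CPM in Control and 71.2, 70.5, 79.0, 73.1 and 78.1 CPM in Maltodextrin. It measured 216, 185, 172, 211 and 189 CPM with FT, 91.9 to 106 CPM with Bupropion (median 96.9), and 94.4, 99.7, 95.4, 98.3 and 93.4 CPM with Desipramine. FT stood apart from the other drugs, most clearly in mPOA, where Cartpt averaged 686 ± 65.3 CPM with FT, 50.4 ± 4.63 CPM in Control and 81.9 to 86.8 CPM with the other 2 drugs. In Raphe the order differed, with 215 ± 9.48 CPM for Desipramine, 153 ± 12.7 for Bupropion, 86.4 ± 14.4 for FT and 63.8 ± 5.95 for Control (SD, n = 5). In NACShell, where Cartpt was abundant, FT (196 ± 26.9) and Desipramine (179 ± 13.4) lay below Control (211 ± 4.45) and Maltodextrin (262 ± 18.0 CPM).

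Avp, the vasopressin precursor, measured 33.2, 33.7, 29.3, 32.6 and 37.5 CPM in Control and 21.1, 25.2, 27.3, 23.4 and 20.1 CPM in Maltodextrin. With FT it measured 65.2, 189, 180.0, 207 and 187 CPM, with Bupropion 74.4, 72.6, 82.0, 79.3 and 89.4 CPM, and with Desipramine 70.2, 44.8, 76.5, 52.1 and 104 CPM. Every drug replicate was above every control replicate, and the first FT replicate was far below the other FT replicates. In mPOA, where vasopressin neurons lie nearby, Avp averaged 805 ± 278 CPM with FT against 164 ± 14.3 CPM in Control; in the remaining regions of the rule, Control averaged at most 0.594 CPM. In NACShell, Avp averaged 18.0 ± 5.49 CPM with FT and 0.594 ± 0.160 CPM in Control, and Oxt, the oxytocin precursor of neighbouring hypothalamic neurons, averaged 213 CPM there with FT and 2.37 CPM in Control. In mPOA, Oxt averaged 1018 CPM in Control, 372 in Maltodextrin, 1547 with FT, 2230.4 with Bupropion and 669 with Desipramine. The part of neighbouring tissue in the punches was not tested. In bulk tissue, more cells of a type and more RNA per cell cannot be told apart.

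Pink1 and Chchd10 are nuclear genes of mitochondrial upkeep. Pink1, the kinase that marks damaged mitochondria for removal, measured 69.5, 71.5, 73.9, 71.0 and 77.6 CPM in Control and 66.4, 69.3, 68.7, 68.5 and 67.5 CPM in Maltodextrin. It measured 100.3, 122, 134, 118 and 139 CPM with FT, 161, 156, 159, 162 and 184 CPM with Bupropion, and 102, 104, 111, 108 and 113 CPM with Desipramine. Bupropion was highest for this gene, and no drug replicate overlapped a control replicate. Chchd10, a protein of the mitochondrial intermembrane space, measured 145, 147, 130.3, 147 and 156 CPM in Control and 120.1, 122, 128, 122 and 120.3 CPM in Maltodextrin. It measured 320.1, 249, 234, 251 and 258 CPM with FT, 219, 221, 234, 233 and 226 CPM with Bupropion, and 201, 210.4, 208, 200.4 and 198 CPM with Desipramine. The 3 drugs lay in that order, all above the controls.

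Naf1, an assembly factor of H/ACA ribonucleoproteins, which guide pseudouridine formation in RNA, measured 15.1, 17.1, 17.7, 18.0 and 17.4 CPM in Control and 17.0, 19.6, 19.0, 18.9 and 17.3 CPM in Maltodextrin. With FT it measured 26.6, 26.0, 32.4, 28.5 and 27.6 CPM, with Bupropion 29.1, 27.9, 29.6, 31.2 and 33.9 CPM, and with Desipramine 27.8, 28.5, 25.6, 26.2 and 27.3 CPM. The 3 drug groups overlapped each other and lay clear of the controls. Mesdc1 (now Tlnrd1), an actin-bundling protein, measured 26.7, 26.2, 25.9, 24.5 and 28.5 CPM in Control and 26.0, 24.7, 26.3, 26.3 and 26.6 CPM in Maltodextrin. It measured 49.6, 46.3, 43.1, 39.2 and 48.7 CPM with FT, 41.9, 39.5, 41.7, 38.3 and 39.8 CPM with Bupropion, and 40.1, 39.1, 35.9, 38.2 and 36.8 CPM with Desipramine. These ranges too were clear of the controls.

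**Figure D2:**
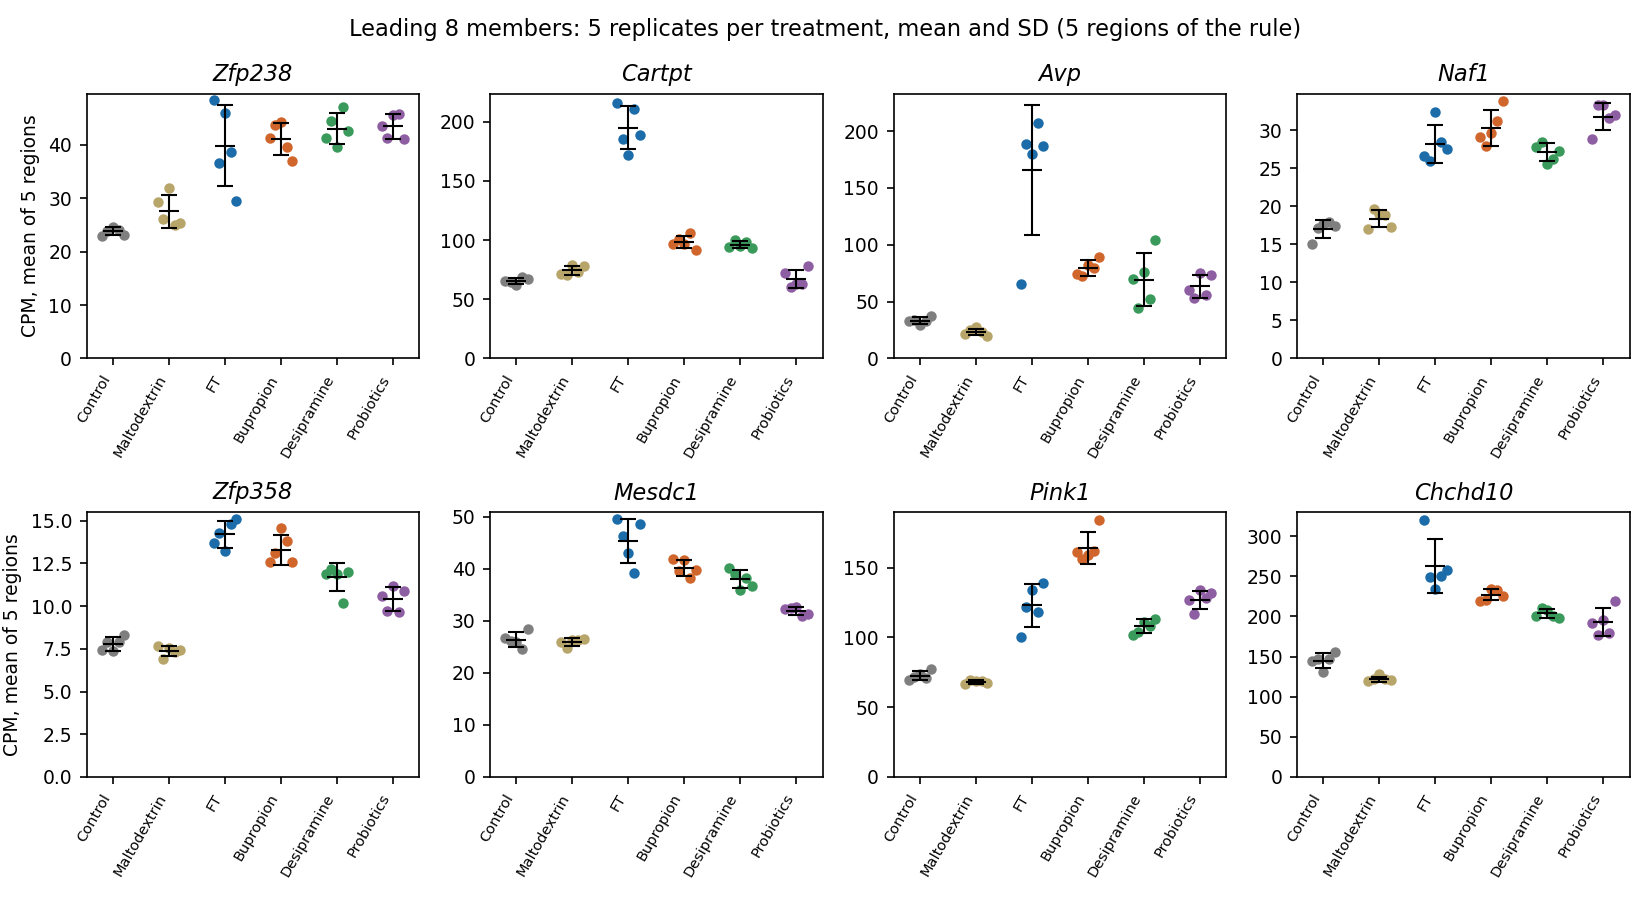
CPM of the 8 leading members in each of 5 replicates per treatment, each the mean over the 5 regions of the rule. Zfp238 with FT overlaps Maltodextrin at its lowest replicate (29.4 CPM), and the FT replicates of Avp split into 65.2 CPM and 180.0 to 207 CPM.

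The members' scores within single regions, which the rule averaged over, are given as a description. Such a score was above 0 for 98 members in Raphe (39.2% of all genes), 90 in NACShell (17.1%), 81 in CGC (6.37%), 80 in mPOA (12.1%) and 62 in PLC (13.4%). It was above 0 in all 5 regions for 43 members (1.35% of all genes), in 4 for 33, in 3 for 17, in 2 for 6 and in 1 for 1. That 1 was Fezf2, a transcription factor of deep-layer cortical neurons. Its score was 0.33 in Raphe and -0.53 in NACShell. Diras1, a small GTPase, had 1.51 in Raphe, 0.48 in NACShell and -0.17 in PLC.

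Levels of some cell type marker lists also differed between the drugs and the controls in these regions. The summed level of 9 genes of meninges and fibroblasts was 1374 CPM in Control and 1563 CPM in Maltodextrin, but 858, 992 and 765 CPM with FT, Bupropion and Desipramine, and 1005 CPM with Probiotics; replicates ranged from 1318 to 1596 CPM in the controls and from 731 to 1002 CPM with the drugs. The sum of 12 endothelial and mural cell genes ranged from 334 to 391 CPM in the controls and from 285 to 328 CPM with the drugs. With Probiotics that sum ranged from 338 to 368 CPM, within the control range. Among the cell type lists examined, only for these was there no overlap of drug and control replicates in these 5 regions. Elsewhere the lists went both ways over drugs and regions. The meninges and fibroblast sum with Bupropion, and the endothelial and mural sum with Desipramine, lay above the reference in every compared region. With FT, the meninges and fibroblast sum was 1103 CPM in BLA and 356 CPM in venDG, against 298 and 589.9 CPM in Maltodextrin. The endothelial and mural sum with FT was 346 CPM in BLA, against 317 CPM in Maltodextrin, and 167 CPM in dorDG, against 282 CPM in Control. The sum of 12 oligodendrocyte and myelin genes ranged from 36075 to 47514 CPM in the controls and from 23318 to 42819 CPM with the drugs, with overlap. Their part in the members' levels was not tested. Members that belong to such lists were Sox9 (astrocytes), Sox10 (oligodendrocyte precursors), Neurod1 and Fezf2 (excitatory neurons), Tmem212 (ependyma), and Avp and Cartpt.

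The Probiotics rats, which the score did not use, also lay above both controls. Their mean was above the higher control mean for 99 of 100 members, as for 49.7% of all genes; the exception was Cartpt, at 72.4, 60.5, 63.0, 62.6 and 78.3 CPM. All 5 Probiotics replicates exceeded all 10 control replicates for 88 members, against 23.6% of all genes. The controls in this comparison were chosen to be low. Probiotics reached or passed the lowest drug for 53 members (89.4% of all genes) and passed the highest for 15 (22.0%). Zfp238 stood at 43.5, 41.3, 45.6, 45.8 and 41.0 CPM, Naf1 at 28.9, 33.3, 33.3, 31.6 and 32.0 CPM and Pink1 at 127, 117, 134, 128 and 132 CPM. Chchd10 (192, 177, 196, 179.7 and 219 CPM), Avp (60.5, 53.2, 74.8, 55.7 and 73.1 CPM), Mesdc1 (32.2, 32.4, 32.7, 31.0 and 31.3 CPM) and Zfp358 (10.6, 9.72, 11.2, 9.66 and 10.9 CPM) lay between the controls and the drug means or at the lower drugs' level. The members' median over Control was 0.46, or 0.32 under TMM scaling. These genes are therefore described here by the score that chose them, not as a set particular to the drugs.

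The regions outside the rule allowed a test on libraries that had not chosen the members. These libraries may come from the same rats as those of the rule, so they are not known to be independent of the choice. Each region was fitted with edgeR's quasi-likelihood test over all genes. All 100 members passed its filter on low counts in each region, and a gene was called at a Benjamini-Hochberg adjusted p under 0.05. In BLA, against Maltodextrin, FT raised 69 members and lowered 9 (28.3% of 13292 genes were called higher and 27.6% lower). Bupropion raised 70 and lowered 0 there (14.3% and 11.6% of genes), and Desipramine raised 48 and lowered 2 (11.4% and 14.6%). In dorDG, against Control, FT raised 82 and lowered 0 (17.8% and 11.5% of 11929 genes), Bupropion 58 and 0 (8.72% and 6.33%), and Desipramine 42 and 6 (15.8% and 17.3%). In every case the share of members called higher exceeded that of all genes, and the share called lower fell below it. Members had to reach the level minimum of the rule, which the genes tested need not reach, so the shares are not matched for level. A pair of counts depended on the reference: against Control, Desipramine in BLA raised 75 (25 without replicate 2 and 30 without replicate 5 in the chosen fit), and against Maltodextrin, Bupropion in dorDG raised 32.

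In venDG, against Maltodextrin, FT raised 77 members and lowered 4 (18.0% and 18.4% of 12071 genes), Bupropion 64 and 0 (13.8% and 14.1%), and Desipramine 62 and 4 (19.1% and 20.5%). In ILC, Bupropion raised 90 and lowered 0 (33.1% and 33.1% of 12228 genes), and Desipramine raised 70 and lowered 0 (17.9% and 19.2%). In LConly, against Control, Bupropion raised 93 and lowered 2 (27.8% and 31.0% of 12505 genes), and Desipramine 64 and 6 (26.9% and 27.5%). The members' median log2 fold change ran from 0.43 to 0.68 for FT, from 0.33 to 0.78 for Bupropion and from 0.27 to 0.42 for Desipramine, while that of all genes lay between -0.036 and 0.024 in these 13 comparisons. Comparisons within a region share their reference libraries. Called higher in all compared regions were 45 members for FT (3 regions; 3.67% of genes), 30 for Bupropion (5 regions; 2.58%) and 9 for Desipramine (5 regions; 2.03%).

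**Figure D3:**
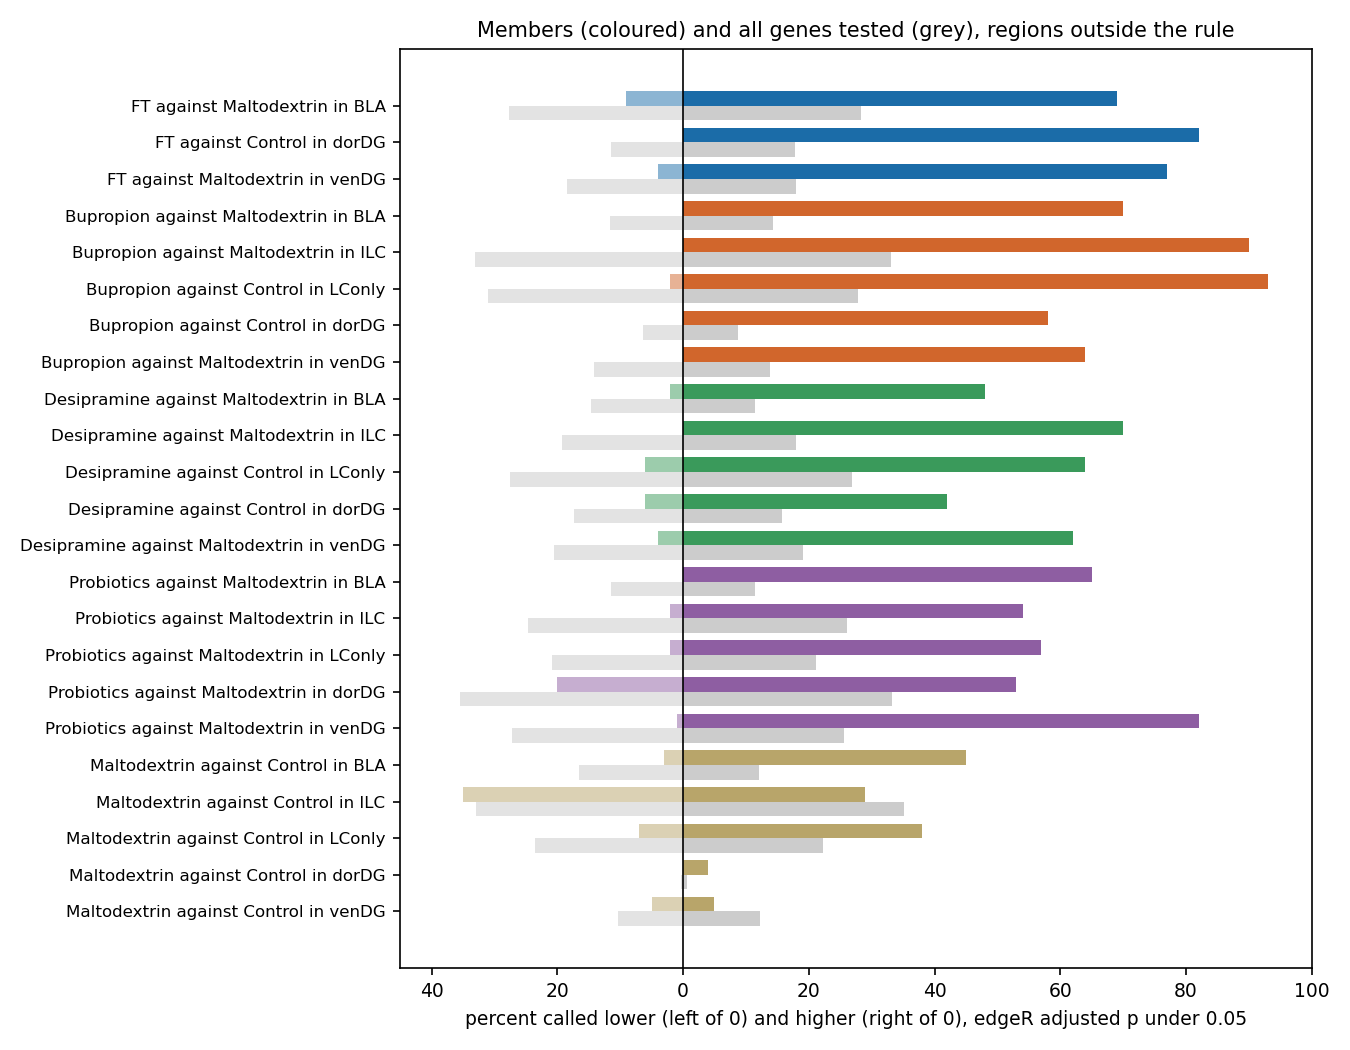
Percent of the 100 members and of all genes tested that edgeR called higher (right of 0) or lower (left of 0) in each of 23 comparisons of the regions outside the rule, 13 of them with a drug; members are coloured by treatment and all genes are grey. In the drug comparisons, members called higher run from 42 (Desipramine, dorDG) to 93 (Bupropion, LConly), and members called lower from 0 to 9.

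Tissue markers differed between some of these groups. In BLA, 12 oligodendrocyte and myelin genes summed to 99034 CPM with FT and 23776 CPM in Maltodextrin, 11 excitatory neuron genes to 424 and 863 CPM, and Ttr, a choroid plexus gene, averaged 7956 and 30.7 CPM. In LConly, Dbh averaged 140.1 CPM in Control, 211 with Bupropion and 62.5 with Desipramine, and Slc17a7 13.4, 24.2 and 32.8 CPM. In dorDG, Ttr averaged 31.7 CPM in Control and 5762 CPM with FT. In ILC, 11 astrocyte genes summed to 13262 CPM with Bupropion and 8046 CPM in Maltodextrin. The 12 oligodendrocyte and myelin genes summed there to 4086 and 2164 CPM, while 11 excitatory neuron genes stood at 897 and 902 CPM. In venDG, the myelin genes summed to 17880.0 CPM with FT and 37416 CPM in Maltodextrin. The part of such differences in the members' changes was not tested.

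Among the leading genes, Pink1 rose in 3 of 3 regions with FT, 5 of 5 with Bupropion and 4 of 5 with Desipramine. The Bupropion rise was 1.65 ± 0.093 (log2 fold change ± SE) in ILC, from 56.1 ± 2.82 to 155 ± 23.0 CPM, at an edgeR adjusted p of 3.00e-17. In dorDG it was 0.82 ± 0.092, from 54.0 ± 4.08 to 91.7 ± 15.0 CPM (SD, n = 5; edgeR adjusted p = 1.75e-07), and no replicate overlapped. Desipramine raised Pink1 by 0.39 to 0.58 in BLA, dorDG, ILC and venDG; in LConly its change was 0.17 (edgeR adjusted p = 0.408, or 0.0236 with only the groups compared). Chchd10 rose by 1.44 ± 0.11 with FT in dorDG, from 90.4 ± 12.9 to 228 ± 33.9 CPM (edgeR adjusted p = 1.29e-11). It also rose by 1.42 ± 0.087 with Bupropion in ILC. With Bupropion in venDG (0.022) and Desipramine in dorDG (0.038) it was not called, its rise with Desipramine in BLA (0.42) was lost without replicate 1, 2 or 5 and with only the groups compared, that with Desipramine in venDG without replicate 3, and its rise of 0.66 with Desipramine in LConly became -0.19 against Maltodextrin.

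Zfp238, first by score, had unlike counts for the 3 drugs. With FT it was called higher in 0 of 3 regions and lower in BLA, by -0.43 ± 0.12 (17.8 ± 3.36 against 22.8 ± 4.67 CPM; edgeR adjusted p = 0.00293), with overlapping replicates; against Control that difference was -0.16 and not called, while the FT change in venDG became 0.40 and was called. The FT changes in dorDG (0.063) and venDG (0.16) had edgeR adjusted p-values of 0.645 and 0.212. With Bupropion it rose in 5 of 5 regions, by 0.23 to 1.08, though the rise in ILC (0.085 against Control) was not called against the other reference and that in BLA was lost without replicate 5. With Desipramine it rose in 3 of 5, by 2.07 ± 0.15 in LConly, from 7.71 ± 1.57 to 38.5 ± 3.41 CPM; against the other reference the call in ILC was lost and calls in BLA and venDG appeared. Whether these drug effects differ was not tested. Zfp358 rose in 3 of 3 regions with FT (0.70 to 0.81), 4 of 5 with Bupropion and 3 of 5 with Desipramine; its Desipramine call in ILC was lost without replicate 1, 3, 4 or 5, that in LConly against Maltodextrin, and 1 in BLA appeared without replicate 4 or against Control.

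Avp rose in 3 of 3 regions with FT, 5 of 5 with Bupropion and 4 of 5 with Desipramine, from levels of about 1 CPM or less. In dorDG it went from 0.586 ± 0.301 CPM in Control to 7.28 ± 1.67 CPM with Bupropion, a log2 fold change of 3.69 ± 0.34 (edgeR adjusted p = 3.45e-09). In BLA it went from 0.926 ± 0.282 CPM in Maltodextrin to 10.9 ± 2.78 CPM with FT (3.49 ± 0.34; edgeR adjusted p = 3.44e-10). The Desipramine mean in BLA, 10.6 ± 16.6 CPM, rested on replicate 3, where 8 reads of 198260 made 40.4 CPM; the other replicates started at 2.86 CPM. Its rise in ILC with Bupropion (edgeR adjusted p = 0.0405) was lost when any replicate was left out, that in dorDG with FT without replicate 1, 3 or 4, and those with Desipramine without replicate 1 in dorDG and ILC and without replicate 1 or 3 in venDG. Cartpt rose with FT in BLA by 1.49 ± 0.15, from 8.67 ± 1.98 to 26.1 ± 5.55 CPM, and with Desipramine in venDG by 1.32 ± 0.15. It fell with Desipramine by 0.57 in dorDG and by 0.50 in LConly. In dorDG the fall was not called against Maltodextrin (-0.091) nor without replicate 3, and in ILC the Bupropion rise of 1.57 became -0.14 against Control. Against Maltodextrin the dorDG changes of Cartpt with FT (0.77) and Bupropion (0.53) were called, and against Control that with Desipramine in ILC (-1.56).

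Naf1 rose in 2 of 3 regions with FT, 4 of 5 with Bupropion and 3 of 5 with Desipramine, and was called in dorDG with none of them. The largest of these was 1.12 ± 0.12 with Bupropion in ILC, from 22.7 ± 1.00 to 43.4 ± 7.36 CPM (edgeR adjusted p = 4.42e-10). With FT in BLA the rise of 0.24 was lost without replicate 2, 4 or 5 and with no filter on low counts, and that with Desipramine in LConly without replicate 2 or 4 and against Maltodextrin. Mesdc1 rose in 3 of 3, 4 of 5 and 3 of 5 regions. With FT in dorDG it went from 13.4 ± 2.75 to 26.0 ± 2.38 CPM (1.06 ± 0.11; edgeR adjusted p = 1.68e-08), and its Bupropion and Desipramine calls in dorDG, at adjusted p-values of 0.0266 and 0.0377, were lost without replicate 1, 2, 4 or 5. With no filter on low counts both were lost as well (edgeR adjusted p = 0.0605 and 0.0638). The Desipramine call in dorDG was also lost with only the groups compared (0.0641) and, with a replicate block, by a p that rounds to the threshold itself. The Desipramine call in venDG (0.32) was lost without replicate 1, 2, 3 or 4.

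The role groups, which were formed after the members were known, are described by their counts. Among all genes, the share called higher per region was 17.8% to 28.3% with FT, 8.72% to 33.1% with Bupropion and 11.4% to 26.9% with Desipramine, and the share called lower 11.5% to 27.6%, 6.33% to 33.1% and 14.6% to 27.5%. Of 16 channel, receptor and synapse members, 7 to 16 rose per region with FT, 10 to 15 with Bupropion and 4 to 14 with Desipramine, while up to 5 fell with FT, 0 with Bupropion and up to 3 with Desipramine. Kcnc1, a potassium channel of fast-spiking neurons, was called higher in all 13 drug comparisons, by 0.46 to 0.78 with FT, 0.41 to 0.58 with Bupropion and 0.23 to 0.63 with Desipramine. In dorDG it stood at 39.8 ± 1.87 CPM in Control and at 56.9 ± 3.25, 57.6 ± 1.25 and 57.4 ± 4.50 CPM with the 3 drugs, with no overlap. Against the other reference its calls for Bupropion in LConly (0.032) and Desipramine in venDG (0.14) were lost, the latter also without replicate 2 or 4. Nptxr, a receptor of the neuronal pentraxin family, which gathers AMPA receptors at synapses, rose by 1.68 ± 0.063 with Bupropion in ILC, from 248 ± 7.67 to 694 ± 47.6 CPM (edgeR adjusted p = 7.41e-22). Its secreted partner Nptx1 fell with Desipramine in BLA (by 0.37 ± 0.067) and in venDG (by 0.53 ± 0.068, from 802 ± 59.3 to 624 ± 24.1 CPM). Against Control, Nptx1 in BLA was higher with Desipramine, by 0.36. Adgrl1, an adhesion receptor, rose by 1.23 with Bupropion in ILC, and Olfm1, a secreted glycoprotein, by 1.06 with FT in dorDG, from 869 ± 12.6 to 1684 ± 74.6 CPM. Syt1, the calcium sensor of vesicle release, fell by 0.89 ± 0.06 with FT in BLA, from 328 ± 24.7 to 186 ± 22.8 CPM, and rose in 5 of 5 regions with Bupropion. Nrgn, a calmodulin-binding protein of excitatory neurons, rose by 2.81 ± 0.14 with Bupropion in LConly, from 7.74 ± 1.13 to 54.0 ± 3.03 CPM, the comparison in which Slc17a7 also stood higher. Pianp, a neural membrane protein, rose by 0.91 with Desipramine in venDG.

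Cytoskeletal and small GTPase members rose in 11 of 14 in each of the 3 FT regions, in 9 to 14 with Bupropion and in 8 to 10 with Desipramine, with which up to 3 fell. Mras, a Ras-family GTPase, rose in 5 of 5 regions with Desipramine (0.15 to 0.55) and was called in 2 of 3 with FT; in LConly it rose from 54.1 ± 5.73 CPM by 0.93 ± 0.051 with Bupropion (edgeR adjusted p = 5.10e-16). Wasl, an activator of actin branching, rose by 0.68 ± 0.057 with Bupropion in BLA, from 106 ± 5.39 to 168 ± 5.54 CPM, and by 0.65 in venDG. Rnd2, a small GTPase of neurons, rose by 0.64 with FT in venDG and by 0.58 with Desipramine in BLA. Ina, the neurofilament protein alpha-internexin, rose by 0.65 with Desipramine in dorDG. Dapk3, a kinase of myosin light chain, fell there by 2.40 ± 0.41, from 4.10 ± 1.12 to 0.850 ± 0.264 CPM, fell by 0.86 in venDG, and rose by 1.54 with Desipramine in LConly. Diras1 fell by 0.59 with Desipramine in dorDG and rose in the remaining regions.

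Of 19 transcription and chromatin members, 13 to 17 rose per region with FT, 6 to 19 with Bupropion and 4 to 15 with Desipramine, while up to 3 fell with FT, 0 with Bupropion and up to 1 with Desipramine. Sox10, the defining factor of the oligodendrocyte lineage, rose by 2.30 ± 0.10 with FT in BLA, from 12.7 ± 1.77 to 65.1 ± 8.88 CPM, where the myelin genes were also higher. It also rose by 0.97 with Desipramine in BLA and fell by 0.31 in LConly. Tcf7l2, an effector of Wnt signalling, rose by 1.59 with FT in BLA and by 2.28 with Desipramine in LConly. Neurod1, a factor of excitatory neuron differentiation, rose in that last comparison, from 14.9 ± 1.67 to 142 ± 7.20 CPM, while Dbh was lower there. Dbp, a circadian output factor, rose in 3 of 3, 5 of 5 and 2 of 5 regions.

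Of the 6 mitochondrial and metabolic members, 5 to 6 rose per FT region, 4 to 6 with Bupropion and 3 to 5 with Desipramine, and none lower. Of 9 ubiquitin, proteasome and folding members, 5 to 8 rose with FT, 4 to 9 with Bupropion and 2 to 6 with Desipramine, none fell, and Bag1, an Hsp70 co-chaperone, rose in 3 of 3, 5 of 5 and 3 of 5 regions. Of 8 vesicle and membrane traffic members, 5 to 8, 4 to 8 and 4 to 7 rose. Vps37d, of the ESCRT-I sorting complex, rose in 3 of 3 regions with FT, 1 of 5 with Bupropion and 0 of 5 with Desipramine. Of the 6 peptides and secreted factors, 3 to 6, 3 to 6 and 1 to 4 rose, and of the 5 RNA-binding genes 4 to 5, 2 to 5 and 1 to 5. Among the 3 growth factor regulators, Pmepa1, an inhibitor of TGF-beta signalling, rose in 3 of 3 FT regions and fell by 1.08 ± 0.11 with Desipramine in LConly. Pnmal2, left ungrouped, rose by 1.11 with Desipramine in ILC, from 79.5 ± 4.19 to 188 ± 8.25 CPM. Tmem212, a gene of ciliated cells, rose with FT in BLA, from 0.110 ± 0.0729 CPM, a few reads a library, to 6.30 ± 1.12 CPM, fell by 2.27 with FT in venDG and fell by 0.77 with Bupropion in LConly; the summed level of 11 choroid plexus and ependyma genes moved the same way with FT, at 8107 against 73.1 CPM in BLA and 790.1 against 13129 CPM in venDG.

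**Figure D4:**
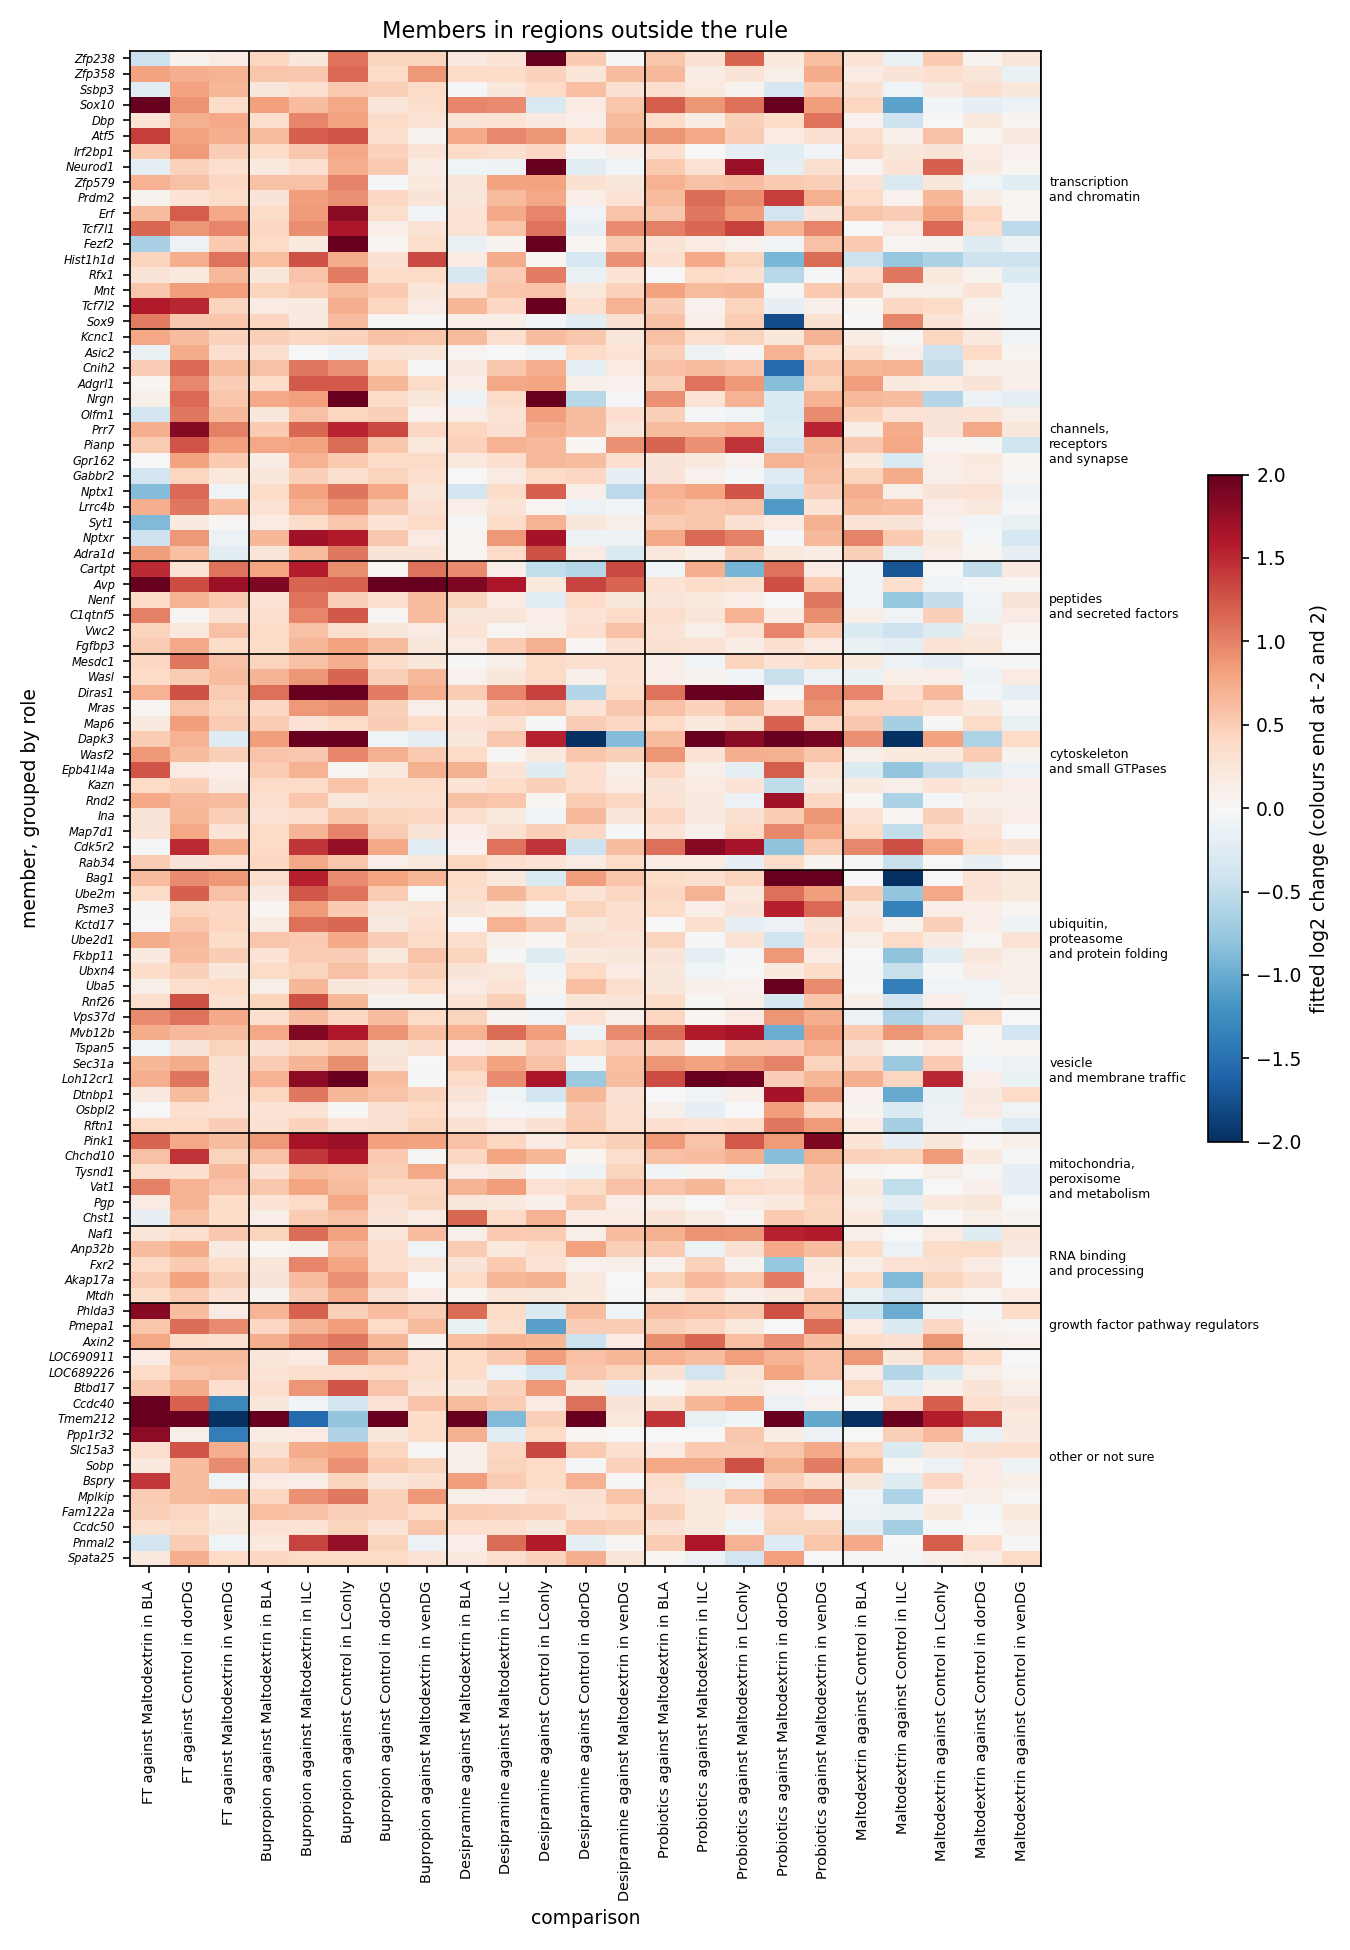
Fitted log2 fold change from edgeR of the members, in rows grouped by role (2 are not shown), in the 23 comparisons of the regions outside the rule (columns, split by treatment); red is higher and blue lower than the reference, and colours end at -2 and 2. In the drug columns Pink1 runs from 0.17 to 1.73, while Zfp238 with FT runs from -0.43 to 0.16.

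Other genes of the same pathways are given as counts, to be read against the shares of all genes called in each direction that stand beside the role groups above. Whether any list differs from other genes was not tested. Of 13 further mitophagy genes tested beside Pink1, 0 to 2 rose and 2 to 9 fell per region with Desipramine, 1 to 5 rose and 2 to 8 fell with FT, and 1 to 6 rose and 1 to 8 fell with Bupropion. Park7, an antioxidant chaperone, fell in 5 of 5 regions with Desipramine, and Tomm7, the import subunit that steadies Pink1 at the outer membrane, fell in 2 of 3, 5 of 5 and 4 of 5 regions. Of 13 to 14 further potassium and HCN channel genes, 2 to 5 rose with FT, 2 to 10 with Bupropion and 1 to 5 with Desipramine, while up to 7, 2 and 5 fell. Hcn2, a pacemaker channel, rose in 3 of 3, 3 of 5 and 4 of 5 regions, by up to 1.31, and Kcnc4 in 2 of 3, 5 of 5 and 2 of 5. Of 19 further genes of synaptic vesicles and release, 0 to 8 rose and 3 to 16 fell per region with FT, 4 to 13 and 1 to 5 with Bupropion, and 3 to 12 and 2 to 10 with Desipramine. Of 13 further clock genes, 1 to 7 rose and 0 to 7 fell with FT, 0 to 7 and 0 to 7 with Bupropion, and 1 to 10 and 0 to 2 with Desipramine. Medians of these lists ran from -0.64 to 0.79, beside -0.036 to 0.024 for all genes.

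Probiotics against Maltodextrin raised 65 members and lowered 0 in BLA (11.4% and 11.4% of genes), 54 and 2 in ILC (26.1% and 24.6%), 57 and 2 in LConly (21.1% and 20.8%) and 82 and 1 in venDG (25.6% and 27.2%). In dorDG it raised 53 and lowered 20 (33.3% and 35.4%). The Probiotics dorDG libraries stood apart there, with Prox1, a granule cell marker, at 29.6 CPM against 88.9 CPM and Mbp, a myelin gene, at 597 against 5799 CPM. In LConly, Ttr averaged 16976 CPM with Probiotics, 6222 CPM in Maltodextrin and 39.6 CPM in Control, and 11 choroid plexus and ependyma genes summed to 17204, 6323 and 67.7 CPM. The part of these differences in the counts was not tested. Called higher in all 5 regions were 19 members (1.79% of genes), among them Naf1 (0.71 to 1.58), Pink1 (0.57 to 1.87), Sox10 (0.84 to 2.68), Mras and Kcnc1, whose call in dorDG was lost without replicate 5. Pink1 in venDG went from 70.2 ± 2.88 to 235 ± 14.5 CPM with Probiotics, a log2 fold change of 1.87 ± 0.12 (edgeR adjusted p = 1.44e-14). Avp was called in 1 of 5 regions and Wasl was higher in none and lower in 1. Whether Probiotics and the drugs differ in these genes was not tested.

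Maltodextrin against Control raised 4 members and lowered 0 in dorDG (0.612% and 0.327% of genes). That count of 4 became 24 with only the groups compared and 0 to 2 with 1 replicate left out of every group. In venDG 5 rose and 5 fell (12.3% and 10.3%), and the count that rose was 8 with only the groups compared and 2 to 3 without replicate 2, 3 or 4. In the other regions, 45 rose and 3 fell in BLA (12.1% and 16.5%), 29 and 35 in ILC (35.1% and 33.0%), and 38 and 7 in LConly (22.2% and 23.6%), where the choroid plexus genes also differed. Naf1, Pink1, Avp and Mesdc1 were called in 0 of 5 of these comparisons, and Chchd10 was called higher in 3. The median change of the members ran from -0.004 in ILC to 0.20 in BLA.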

How the data were processed

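RNA sequencing was done on 300 libraries of stranded total RNA, read as paired ends, per the labels' protocols. The authors deposited raw counts per gene, 17337 rows; STAR, HTSeq, FastQC and rn6 are named per the submitters' processing notes, and their versions were not given in the sources used here. Members, roles and gene lists were chosen with earlier results of these data known. CPM was computed from raw totals, and the score from log2(CPM + 1). Each region outside the rule was fitted over its 30 libraries with edgeR 4.0.16 (R 4.3.3): TMM factors, filterByExpr, quasi-likelihood test, Benjamini-Hochberg adjustment over all genes tested, and a threshold of 0.05. SE is the size of the log2 fold change divided by the square root of F. The procedure was tested on simulated data. Genes were named from the 25 highest scores, the 3 members inside and 3 genes outside the limit, and members in a gene list. Per drug comparison, the 2 members called higher and 1 called lower with the smallest adjusted p were added. Not all of the 25 are described: Ssbp3, Ube2m, Tysnd1, Vat1, Asic2, Cnih2, Psme3 and Map6 were left out. Other genes were chosen after their values were seen. Alternatives were DESeq2 1.42.0, RLE size factors, no filter, only the groups compared, a replicate block, the other reference, each replicate or region left out, and no libraries under 1000000 counts. For the score they were also TMM scaling, other pseudocounts and other minimums on the mean CPM. No column lacked a labelled sample, and none of the 600 pairs of libraries within a group differed by less than sampling noise. Values of 2 named members are not reported here.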

Additional observations from a re-analysis of the deposited data

Results flagged for a closer look

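Of 48 groups of 5 replicates examined for the 8 leading members, 5 held a replicate far from the rest, and chance flags about 1 in 20. Avp with FT was at 65.2 CPM in replicate 1, and the next lowest was 180.0 CPM. Zfp358 with Desipramine was at 10.2 CPM in replicate 4, the next at 11.9 CPM. Pink1 with Bupropion reached 184 CPM in replicate 5, the next at 162 CPM. Chchd10 reached 128 CPM in Maltodextrin replicate 3 (next 122 CPM) and 320.1 CPM in FT replicate 1 (next 258 CPM).

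Some members moved in opposite directions in different regions under the same drug, with every replicate on its side of the reference. The difference was not tested, and not every change listed was called by edgeR. Pnmal2 with Desipramine was called higher in 2 regions and lower in 0, so its change in dorDG was not called. Nptx1 with Desipramine was called higher in 2 regions and lower in 2, so not all of its changes listed here were called. With Desipramine in dorDG, Diras1 changed by -0.59 (log2), but by 0.51 in BLA, 0.98 in ILC, 1.36 in LConly and 0.37 in venDG. Pnmal2 was at -0.20 in dorDG against 1.11 in ILC, 1.58 in LConly and 0.046 in venDG, Nrgn at -0.56 against 0.37 in ILC and 2.16 in LConly, and Dapk3 at -2.40 against 1.54 in LConly. Nptx1 with Desipramine was at -0.37 in BLA and -0.53 in venDG, against 0.13 in dorDG, 0.37 in ILC and 1.20 in LConly. Pmepa1 with Desipramine was at -1.08 in LConly and 0.51 in venDG. With FT, BLA stood against other regions for Nptxr (-0.41, and 0.87 in dorDG), Nptx1 (-0.86, and 1.13 in dorDG) and Olfm1 (-0.37, against 1.06 in dorDG and 0.65 in venDG). Tmem212 with FT was at -2.27 in venDG, 5.59 in BLA and 4.56 in dorDG, the last 2 resting on a few reads in the reference libraries.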

How the results depend on the processing

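Of 253 recomputed counts of members called higher in the regions outside the rule, 237 stayed within 1.5 times the value given and 16 did not; the cause was not tested. Desipramine against Maltodextrin in BLA went from 48 to 75 with the other reference group and ranged from 25 to 50 with 1 replicate left out of every group. Bupropion against Control in dorDG went from 58 to 32 with the other reference group. Maltodextrin against Control in dorDG went from 4 to 7 with DESeq2, 2 with no filter and 24 with only the groups compared, and ranged from 0 to 2 with 1 replicate left out; in venDG it went from 5 to 8 with only the groups compared and ranged from 2 to 5. TMM scaling left 56 members among the highest 100. Of the recomputed scores of named genes, 682 stayed within the pooled SD between replicates, 109 moved by at least that much and 1 turned sign. The sign turned for the score of Dlk1, just outside the limit (-0.0063 without NACShell). With the other reference group it turned for Nptx1 with Desipramine in BLA (0.36), Cartpt with Bupropion in ILC (-0.14) and Chchd10 with Desipramine in LConly (-0.19). Of the recomputed single-gene results, 60 lost their call, 17 gained one, 1702 stayed called, 349 stayed uncalled and 3 turned sign. Replicate numbers were not taken to pair the libraries: over 115 same-numbered pairs in 23 comparisons, the correlation of deviations had a median of 0.015 (from -0.091 to 0.29), 13 were above 0.1, and in 0 comparisons were all above 0.1. The same number gave the highest correlation in 35 pairs, more than the 23 of unrelated numbers, a hint from the data and not the design. A replicate block moved 0 of 23 counts by over 1.5 times, with FT in BLA at 69 and Bupropion in BLA at 72. It ended the calls of Avp with Bupropion in ILC (edgeR adjusted p = 0.0508) and Mesdc1 with Desipramine in dorDG (a p that rounds to the threshold), and Zfp358 with Probiotics in LConly gained one (0.0215). Depth limits Avp outside mPOA, where a level near 1 CPM is a few reads in the shallow libraries.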
